A study of Mus musculus with 9 samples.

Results

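The genes described here are 34 genes of glycolysis and of the response to low oxygen, picked by symbol from the 20731 gene symbols in the count table. They comprise 14 enzymes from hexokinase to pyruvate kinase, 1 activator of phosphofructokinase, 8 genes of lactate and pyruvate handling and of glucose or lactate transport, and 11 genes of the hypoxia response. All 34 were among the 14746 genes that passed the filter on low counts. RNA was sequenced from brains of male C57BL/6J mice aged 8 to 10 weeks on day 2 after modelling, with 3 libraries in each of 3 groups. All mice carried cerebral venous sinus thrombosis (CVST), a clot in the large vein that drains the brain, induced here in the superior sagittal sinus. The CVST group had the clot alone, and the CVST+Ligation group also had its deep cervical lymph nodes ligated, which blocks the outflow of the meningeal lymphatic vessels. The 4-PBA group had the clot, the ligation and 4-phenylbutyric acid injected intraperitoneally at 100 mg/kg, a compound that eases stress of the endoplasmic reticulum. The methods place the injection before modelling and the series text places it after the ligation. Each of the 9 libraries thus came from a brain with a clot, and no library without a clot was analysed here. The comparison of 4-PBA with CVST therefore differs by the ligation and the compound together.

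Glycolysis splits glucose into pyruvate in the cytoplasm and yields ATP without oxygen. Lactate dehydrogenase turns pyruvate into lactate and back, monocarboxylate transporters carry lactate across membranes, and pyruvate dehydrogenase kinases hold pyruvate back from the mitochondria. When oxygen is low, prolyl hydroxylases stop marking the alpha subunits of the hypoxia-inducible factors (HIF) for degradation. HIF then pairs with ARNT and raises transcription of many glycolytic enzymes, of Vegfa and of other genes through a short DNA element, the hypoxia response element. HIF-1alpha is controlled mainly through the stability of its protein, so its mRNA and its activity are separate quantities. In the brain, neurons and astrocytes use different isozymes and exchange lactate.

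Promoter windows were available for 31 of the 34 members, and those of Slc2a3, Epas1 and Bnip3l were not analysed here. The windows run from 250 bases before to 50 bases after each annotated start (RefSeq, GRCm38.p6). They were searched on both strands for ACGTG and for its variant GCGTG, the core letters of the hypoxia response element. On the printed strand a match may therefore appear as its reverse complement. ACGTG is part of the E-box CACGTG, which counts as 2 matches because it reads the same on both strands. At least 1 match was present in a window of 28 of 31 members (90.3%), against 12628 of 27025 genes in the whole table (46.7%) and 7542 of 11572 genes that were tested in these libraries (65.2%). A gene counted if any of its windows matched, so genes with more windows had more chances. By window, 77.8% of the members' 45 and 43.8% of all 32851 had a match. The members' windows were also richer in G and C, with a median of 62.3% over 45 windows, against 60.3% over those of the genes tested and 52.7% over all 32851. The 4 windows below belong to members with a role in the comparisons, namely Hif1a, which was higher after ligation, Pfkp and Bnip3, which were lower in 4-PBA than in CVST, and Ldha, which had the largest difference below zero in that comparison. Capitals mark the matches.
Hif1a, chr12:73907617-73907916, plus strand: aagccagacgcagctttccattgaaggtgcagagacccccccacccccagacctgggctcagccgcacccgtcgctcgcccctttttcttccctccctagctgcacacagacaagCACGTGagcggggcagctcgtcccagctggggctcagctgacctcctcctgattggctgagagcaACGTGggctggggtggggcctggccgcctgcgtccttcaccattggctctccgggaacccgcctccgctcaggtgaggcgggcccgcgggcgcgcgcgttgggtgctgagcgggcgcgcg
Pfkp, chr13:6648722-6649021, minus strand: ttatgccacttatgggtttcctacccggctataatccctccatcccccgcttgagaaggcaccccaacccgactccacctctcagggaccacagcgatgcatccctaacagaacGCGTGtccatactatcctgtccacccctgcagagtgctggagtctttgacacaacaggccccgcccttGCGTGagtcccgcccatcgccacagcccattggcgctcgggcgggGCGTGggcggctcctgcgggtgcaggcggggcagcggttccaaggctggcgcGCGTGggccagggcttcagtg
Bnip3, chr7:138909457-138909756, minus strand: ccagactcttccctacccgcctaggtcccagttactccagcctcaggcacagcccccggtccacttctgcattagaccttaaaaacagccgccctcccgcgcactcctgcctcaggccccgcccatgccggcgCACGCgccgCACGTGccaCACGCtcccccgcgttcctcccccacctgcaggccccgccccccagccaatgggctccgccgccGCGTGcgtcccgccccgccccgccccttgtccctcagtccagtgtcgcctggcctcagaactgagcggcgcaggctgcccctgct
Ldha, chr7:46845554-46845853, plus strand: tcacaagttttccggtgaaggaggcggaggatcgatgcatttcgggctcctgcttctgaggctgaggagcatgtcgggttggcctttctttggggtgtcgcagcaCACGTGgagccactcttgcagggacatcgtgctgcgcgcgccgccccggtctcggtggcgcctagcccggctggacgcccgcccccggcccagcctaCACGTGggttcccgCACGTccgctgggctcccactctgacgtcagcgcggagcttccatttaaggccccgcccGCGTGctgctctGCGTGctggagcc
The Ldha window printed held 7 matches, 5 to ACGTG and 2 to GCGTG, the Bnip3 window 5, the Pfkp window 4 and the Hif1a window 3. Another Ldha window, at 46846832 to 46847131, held 2 matches to GCGTG and 0 to ACGTG. In the 4 windows printed, genes that were lower and the gene that was higher thus both had these letters near a start. Tpi1, also called lower in 4-PBA than in CVST, had no match in its window, nor had Gpi1 and Eno2. A match describes only the sequence.

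Total counts were 19392081 to 24166917 in CVST, 18835705 to 24157584 in CVST+Ligation and 18100739 to 25091498 in 4-PBA. The series text names cortical tissue and the sample labels name brain. Genes that mark cortical projection neurons were present in all libraries, with summed levels of 498 to 659 CPM (counts scaled to a fixed library total) in CVST, 219 to 484 in CVST+Ligation and 207 to 337 in 4-PBA. Of these 8 genes, 3 were called lower in CVST+Ligation and 4 in 4-PBA than in CVST. Genes that mark other regions differed between groups as well. The summed level of 8 hypothalamus genes was 2.25 to 3.47 CPM in CVST, where Sim1 was at 0 in all libraries, 2.23 to 21.1 in CVST+Ligation and 278 to 474 in 4-PBA, and all 6 of those tested were called higher in 4-PBA than in CVST. That of 10 midbrain and brainstem genes was 18.9 to 20.3, 163 to 439 and 209 to 219, with Hoxa5 at 0 throughout CVST and 4-PBA and 7 of 7 tested called higher in CVST+Ligation and 6 of 7 in 4-PBA than in CVST. Genes of both regions were thus low in every CVST library. Thalamus genes summed to 62.8 to 114, 244 to 686 and 450.4 to 761, and 5 of 7 were called higher in CVST+Ligation and 6 of 7 in 4-PBA than in CVST. Oligodendrocyte genes summed to 2606 to 3452, 2629 to 5912 and 4653 to 7439, and 5 of 7 were called higher in 4-PBA than in CVST. Most tested markers of hypothalamus, brainstem, thalamus and myelin were thus called higher in 4-PBA than in CVST. Striatum genes summed to 1053 to 1772, 195 to 515 and 254 to 1281, and 8 of 8 were called lower in CVST+Ligation than in CVST and 2 of 8 in 4-PBA, where all 8 lay below zero. Astrocyte genes summed to 1938 to 3073, 2328 to 3766 and 2368 to 3562, and 3 of 8 were called higher in CVST+Ligation and 1 in 4-PBA than in CVST. Microglia genes summed to 621 to 694, 484 to 566 and 510.1 to 585, and all 6 lay below zero in both comparisons with CVST, with 2 called lower in CVST+Ligation and 1 in 4-PBA. Replicate 2 of CVST+Ligation stood apart with 1453 CPM of cerebellum genes, against 124 to 245 in the other libraries, and 6 of 7 tested cerebellum genes were called higher in CVST+Ligation than in CVST, 3 of them with no overlap of the groups. Replicate 1 of 4-PBA stood apart with 3144 CPM of choroid plexus genes, against 20.5 to 986 in the others, and 3 of 7 of these genes were called higher in 4-PBA than in CVST. Without that replicate 2 members, Hif1a and Pfkm, were called in 4-PBA against CVST, where 8 were with all libraries. Red blood cell genes summed to 154 to 186 CPM in CVST, 151.5 to 330 in CVST+Ligation and 167.5 to 211 in 4-PBA. Of 5 tested, all lay above zero in CVST+Ligation against CVST and 2 were called higher. All 5 lay below zero in 4-PBA against CVST+Ligation, with none called. Several of these lists differed between the groups of each comparison below, and their part in the members' differences was not tested. In bulk tissue, fewer cells of a type and less RNA per cell cannot be told apart.

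Of the members, 6 of the 14 glycolytic enzymes were called lower in 4-PBA than in CVST, and Hif1a was higher in both other groups than in CVST. A gene was called at an unadjusted p below 0.05 in edgeR's quasi-likelihood test. With edgeR no member passed once p-values were adjusted by Benjamini-Hochberg over all 14746 genes (1 did with DESeq2, in 4-PBA against CVST), so each call below is a difference at the unadjusted level, and the adjusted p is printed beside it. The labels number the samples of a group and say no more of their origin, so p-values measure the spread between these samples. In 4-PBA against CVST, 7 of 34 members were called lower (20.6%), where 7.33% of all genes tested were, and 1 was called higher, where 8.07% of all genes were. The split was 4 lower and 2 higher with total counts alone or limma on log2(FPKM + 1), 3 and 2 with limma on log2(FPKM + 0.1), and 1 and 1 without 4-PBA replicate 1. The 7 were Hk1, Pfkm, Pfkp, Aldoa, Tpi1, Pgam1 and Bnip3. After adjustment 0.122% of all genes remained in this comparison. The members' median log2 fold change was -0.233, against -0.00838 over all genes, and 25 of 34 values were below zero. In 12 members every 4-PBA library was below every CVST library, and in 1 every library was above. Over all genes tested, 11.5% were separated downwards and 12.3% upwards. The 12 were Hk1, Pfkm, Pfkp, Aldoa, Tpi1, Pgk1, Pgam1, Eno1, Pkm, Ldha, Pdk3 and Bnip3.

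In CVST+Ligation against CVST, Hif1a was the only member called, and it was higher. None was called lower, where 5.47% of all genes tested were called higher and 4.18% lower, and 0.0203% remained after adjustment. The members' median log2 fold change was -0.103, against 0.00212 over all genes, with 26 of 34 below zero. Hif1a and Slc16a1 were separated upwards and Adm downwards, as were 6.61% and 7.21% of all genes. In 4-PBA against CVST+Ligation no member was called at p below 0.05 in the edgeR model of all libraries with TMM. DESeq2 called 1, Slc16a1, lower, and edgeR with gene length corrected for called Pdk2 lower. Without CVST+Ligation replicate 2, 4 members were called, 3 lower and 1 higher, as were 10% of all genes. With all libraries, 1.81% of all genes were called higher and 1.42% lower, and 0% remained after adjustment. The median of the members was -0.118, against -0.0168 over all genes, and 25 of 34 were below zero. Hk1, Eno1, Slc16a1 and Pdk2 were lower in every 4-PBA library than in every CVST+Ligation library and no member was separated upwards, against 4.22% and 3.51% of all genes. The 3 comparisons share groups, so their values are not independent of each other.

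**Figure D1:**
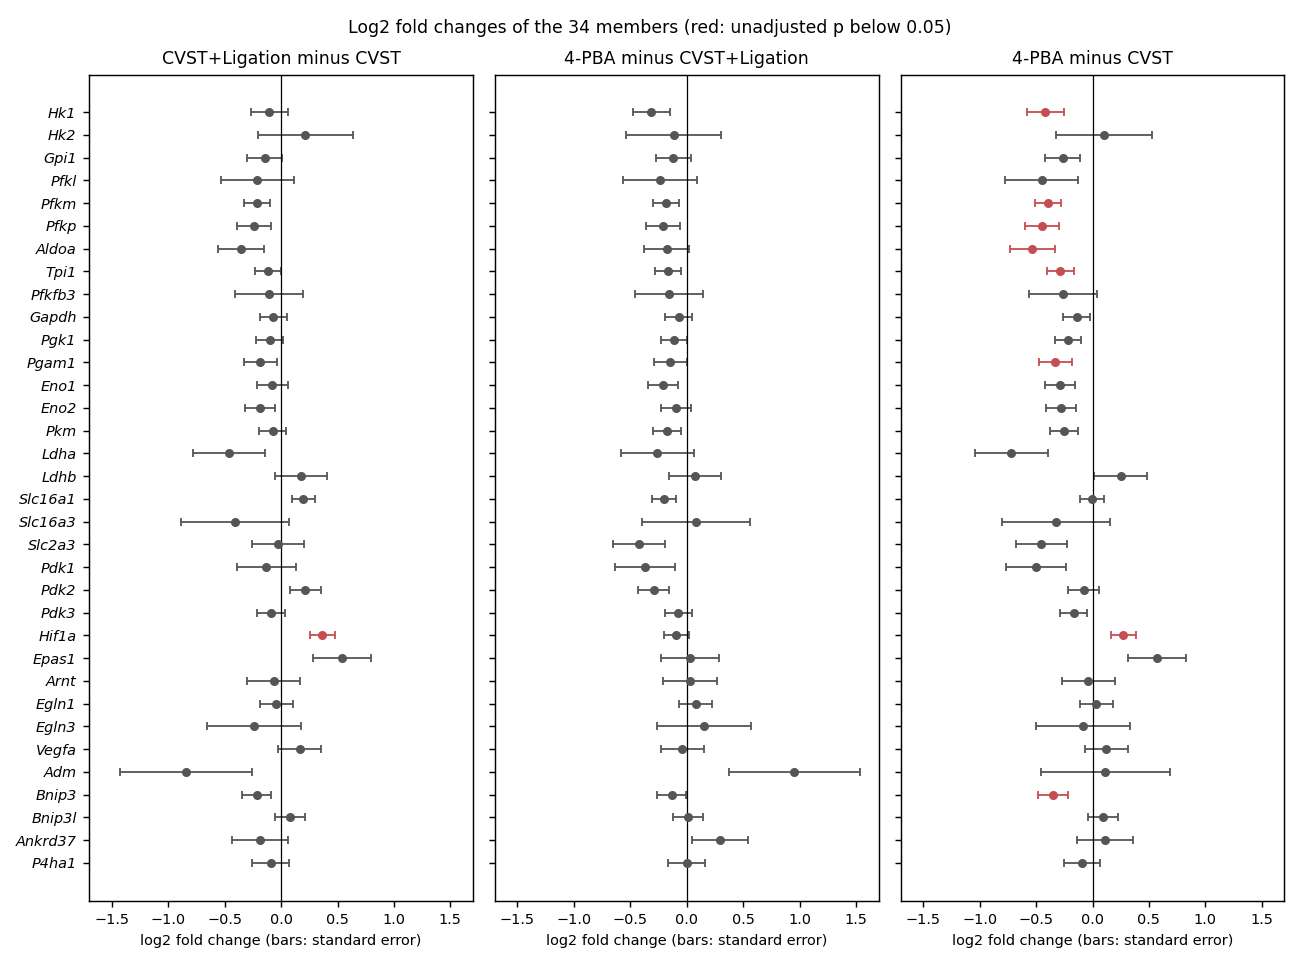
Log2 fold change (horizontal axis) of each of the 34 members (vertical axis, in order of role) in 3 comparisons, with bars for the standard error of the edgeR model. Red points have an unadjusted p below 0.05, and most points of 4-PBA against CVST lie left of zero (25 of 34), with Hif1a and Epas1 to the right.

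Hif1a encodes the oxygen-regulated alpha subunit of HIF-1 and lies on chromosome 12 (73901375 to 73947530, plus strand, GRCm38). Its level was 105, 98.5 and 92.9 CPM in CVST replicates 1, 2 and 3, 123, 139 and 119.8 in CVST+Ligation, and 115, 121 and 122 in 4-PBA. All 6 libraries with ligation were above all 3 without. CVST+Ligation was 1.29-fold above CVST (log2 0.37 ± 0.11 SE, adjusted p = 0.359 in edgeR), and this call held in all 16 alternative analyses (log2 0.296 to 0.407). 4-PBA was 1.21-fold above CVST (log2 0.27 ± 0.11, adjusted p = 0.28). That call was lost without CVST replicate 2 (0.286) or 3 (0.214), or without 4-PBA replicate 2 (0.264) or 3 (0.256), while the sign stayed the same.

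Epas1 encodes HIF-2alpha, the subunit prominent in endothelium and astrocytes. It measured 82.2, 112 and 66.7 CPM in CVST, 118, 172 and 89.5 in CVST+Ligation, and 139, 139 and 109.7 in 4-PBA. The groups overlapped, and neither difference from CVST was called in the model of all libraries (log2 0.54 ± 0.26, adjusted p = 0.541 for CVST+Ligation, and 0.57 ± 0.26, adjusted p = 0.332 for 4-PBA, edgeR). Without CVST replicate 2 both passed the threshold (0.766 and 0.81), and so did the first without CVST+Ligation replicate 3 (0.736) and the second without 4-PBA replicate 3 (0.675). The second passed in 10 of 16 alternatives, among them DESeq2 (0.576), total counts alone (0.634) and both limma fits (0.65 and 0.665), and the first in 3 of 16. Astrocyte genes, given above, were on the same side as Epas1 and Hif1a in both comparisons by their median (0.623 and 0.463 on the log2 scale). Endothelium genes had medians of 0.093 and 0.168 with none of 8 called, and genes of pericytes and smooth muscle 0.219 and 0.409 with 2 of 7 called higher in each comparison. The part of these lists was not tested. Arnt, the constant partner of both alpha subunits, ranged from 14.9 to 25.4 CPM over the 9 libraries, and its groups overlapped. Egln1, the main prolyl hydroxylase that marks HIF alpha for degradation, ranged from 36.3 to 45.9 CPM with no separation of groups. Egln3, a hydroxylase that is itself a HIF target, measured 8.37, 4.79 and 5.15 CPM in CVST, 5.33, 4.48 and 5.71 in CVST+Ligation, and 3.63, 3.62 and 9.98 in 4-PBA. The highest Egln3 value and the lowest 2 were thus all in 4-PBA.

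Upper glycolysis, from hexokinase to triosephosphate isomerase, held most of the lower calls in 4-PBA. Pfkm encodes the muscle-type subunit of phosphofructokinase, the main control point of the pathway, and lies on chromosome 15 (98092589 to 98132451, plus strand). It measured 924, 853 and 895 CPM in CVST, 676, 854 and 774 in CVST+Ligation, and 678, 677 and 675 in 4-PBA. The 4-PBA libraries lay within 4 CPM of each other and below all CVST libraries, at 24% less (log2 -0.40 ± 0.12, adjusted p = 0.15 in edgeR). This call held in all 16 alternatives (-0.412 to -0.323). Pfkm was called lower in CVST+Ligation than in CVST only without CVST+Ligation replicate 2 (-0.298, against -0.213). Pfkp, the platelet-type subunit (chromosome 13, 6579768 to 6648777, minus strand), measured 675, 489.97 and 552 CPM in CVST, 468, 438 and 549.9 in CVST+Ligation, and 397, 459 and 400.1 in 4-PBA. It was lower in 4-PBA than in CVST (log2 -0.45 ± 0.15, adjusted p = 0.199, edgeR), but not past the threshold without CVST replicate 1 (-0.307) or 4-PBA replicate 1 (-0.399). Pfkl, the liver-type subunit, ranged from 233 to 436 CPM in CVST, 155 to 379 in CVST+Ligation and 223 to 278 in 4-PBA, so its groups overlapped. Without CVST+Ligation replicate 2 it was called lower in 4-PBA than in CVST+Ligation (log2 -0.533, against -0.238 with all libraries).

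Aldoa encodes aldolase A, which splits fructose 1,6-bisphosphate, and had the highest mean level per length of the members (1707 FPKM, fragments scaled by gene length and library total). The annotation has 2 entries under this symbol on the minus strand of chromosome 7, at 126795234 to 126800751 and 126800790 to 126809108. Its level was 3453, 2883 and 4449 CPM in CVST, 2771, 2226 and 3435 in CVST+Ligation, and 2213, 2630 and 2604 in 4-PBA. All 4-PBA libraries lay below all CVST libraries, at 31% less (log2 -0.53 ± 0.20, adjusted p = 0.241, edgeR). The call was lost without CVST replicate 3 (-0.369) or 4-PBA replicate 1 (-0.443). In CVST+Ligation against CVST it was -0.355, and it was called only without CVST replicate 2 (-0.49) or CVST+Ligation replicate 3 (-0.525).

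Hk1 encodes the main hexokinase of the brain, which phosphorylates glucose on entry (chromosome 10, 62268855 to 62379908, minus strand). It measured 933, 643 and 842 CPM in CVST, 753, 629 and 867 in CVST+Ligation, and 611, 623 and 575 in 4-PBA. CVST replicate 2 lay near the 4-PBA libraries, which were nonetheless all below it (log2 -0.42 ± 0.17, adjusted p = 0.266, edgeR). The call was lost when any 1 library of these groups other than CVST replicate 2 was left out (-0.442 to -0.291), and with limma on log2(FPKM + 0.1) (-0.33). Against CVST+Ligation, Hk1 was also below every library in 4-PBA, without passing the threshold (log2 -0.31 ± 0.17, adjusted p = 0.9998) unless CVST+Ligation replicate 2 was left out (-0.412).

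Tpi1 encodes triosephosphate isomerase. It measured 954, 903 and 981 CPM in CVST, 786, 851 and 978 in CVST+Ligation, and 802, 772 and 757 in 4-PBA. It was called lower in 4-PBA than in CVST (log2 -0.28 ± 0.12, adjusted p = 0.28, edgeR), and no longer once any 1 of these 6 libraries was left out (-0.302 to -0.266). It was also lost with total counts alone (-0.211) and with limma on FPKM (-0.212), so that 7 of 16 alternatives called it. Gpi1, glucose-6-phosphate isomerase, ranged from 829.7 to 1192 CPM in CVST, 780.2 to 993 in CVST+Ligation and 788 to 872 in 4-PBA. Pfkfb3, which makes the activator of phosphofructokinase, ranged from 22.9 to 59.6, 31.6 to 42.7 and 31.9 to 32.3 CPM, so its CVST libraries spanned all the others.

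**Figure D2:**
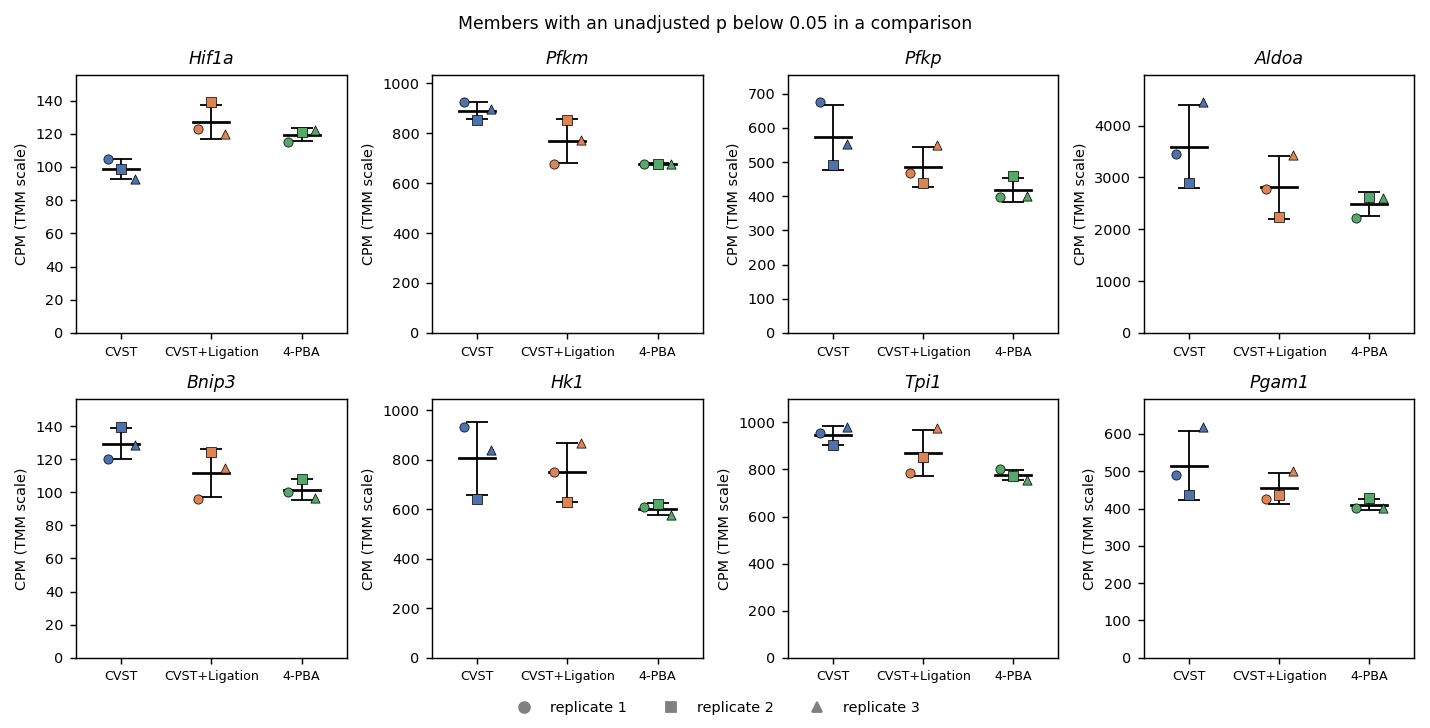
CPM on the TMM scale (vertical axes, from 0) of the 8 members called in a comparison, by group, with 1 symbol per library, the group mean as a bar and the SD as an error bar (n = 3). Hif1a is lowest in CVST, and the other 7 genes have all 4-PBA libraries below all CVST libraries.

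In lower glycolysis, from glyceraldehyde-3-phosphate dehydrogenase to pyruvate kinase, all 6 enzymes had log2 fold changes below zero in 4-PBA against CVST, and 1 was called. Pgam1, phosphoglycerate mutase, measured 491, 437 and 619 CPM in CVST, 426, 435 and 501 in CVST+Ligation, and 402, 427 and 403 in 4-PBA. It was called lower in 4-PBA than in CVST (log2 -0.33 ± 0.14, adjusted p = 0.318, edgeR). This was lost when any 1 of these libraries other than CVST replicate 2 was left out, and without CVST replicate 3 the value was -0.193. It was lost as well with total counts alone (-0.253), the stricter filter (-0.322), a model of only these groups (-0.316) and limma on FPKM (-0.241 and -0.242), so that 6 of 16 alternatives called it. Eno1, the general enolase, ranged from 1253 to 1662 CPM in CVST, 1269 to 1502 in CVST+Ligation and 1135 to 1246 in 4-PBA. Its groups did not overlap between 4-PBA and CVST (log2 -0.29 ± 0.13, adjusted p = 0.345, edgeR), and it was called only without CVST replicate 2 (-0.365). Eno2, the neuronal enolase, had log2 -0.28 ± 0.13 (adjusted p = 0.354), with 909 to 1162 CPM in CVST, 840.3 to 982 in CVST+Ligation and 765 to 909.98 in 4-PBA. Without CVST replicate 3, Eno2 was called lower in 4-PBA (-0.39) and in CVST+Ligation (-0.297, against -0.186) than in CVST. The share of Eno1 in the summed FPKM of both enolases was 56.7% ± 5.88 (SD, n = 3) in CVST, 58.7% ± 3.07 in CVST+Ligation and 56.8% ± 2.55 in 4-PBA, so the balance of the enolases differed by less than its spread.

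Pkm, pyruvate kinase, ranged from 2020 to 2326 CPM in CVST, 1852 to 2277 in CVST+Ligation and 1812 to 1940 in 4-PBA (log2 -0.25 ± 0.12, adjusted p = 0.367 against CVST, edgeR). Pgk1, phosphoglycerate kinase, ranged from 906 to 1045, 808 to 971 and 796 to 867 CPM (log2 -0.22 ± 0.12, adjusted p = 0.414). Both were separated from CVST without passing the threshold. Gapdh ranged from 418 to 510.4, 405 to 489.7 and 409.5 to 426 CPM, and its groups overlapped. Gapdh, Pgk1, Tpi1, Pgam1, Eno1, Aldoa and Ldha are known to have processed copies elsewhere in the genome, so their counts are uncertain where reads matched several places, which was not measured here.

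Over the 14 enzymes from hexokinase to pyruvate kinase, 6 were called lower in 4-PBA than in CVST and none higher, 13 of 14 lay below zero, and the median log2 fold change was -0.285. Of all genes tested, 7.33% were called lower, 8.07% higher and 51.1% lay below zero, with a median of -0.00838. In CVST+Ligation against CVST none was called, 13 of 14 lay below zero and the median was -0.131. In 4-PBA against CVST+Ligation none was called, all 14 lay below zero and the median was -0.17. Of all genes tested, 49.7% and 53% lay below zero in these comparisons. The summed level of the 14 enzymes was 9407, 8544 and 10170 FPKM in CVST, 8074, 8298 and 9319 in CVST+Ligation, and 7576, 7901 and 8024 in 4-PBA. The sum was lower in every 4-PBA library than in every library of CVST or CVST+Ligation, in the latter case by a small margin. Hk2, the inducible hexokinase, was the exception in 4-PBA against CVST, at a far lower level.

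Ldha encodes the A subunit of lactate dehydrogenase, which favours lactate formation (chromosome 7, 46841475 to 46855627, plus strand), and Ldhb the B subunit, which favours its use. Ldha measured 789, 511 and 873 CPM in CVST, 541, 292 and 745 in CVST+Ligation, and 348, 499 and 470.4 in 4-PBA. The 4-PBA libraries lay below those of CVST by a small margin, and the difference missed the threshold (log2 -0.72 ± 0.32, adjusted p = 0.327, edgeR), with 5 of 16 alternatives past it. Among these was the fit without CVST replicate 2, the lowest of its group (-0.905). In CVST+Ligation against CVST it was called lower without CVST+Ligation replicate 3 (-0.797, against -0.461). Ldhb measured 546, 766 and 632 CPM in CVST, 524, 1029.9 and 643 in CVST+Ligation, and 821, 756 and 734 in 4-PBA, and its groups overlapped. Without CVST+Ligation replicate 2, Ldhb was called higher in 4-PBA than in CVST+Ligation (0.414, against 0.0731). Ldha was thus lowest and Ldhb highest in the same library, CVST+Ligation replicate 2, the library with the high cerebellum genes.

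The share of Ldha in the summed FPKM of both subunits was 57.7%, 38.7% and 56.6% in CVST, 49.4%, 21.1% and 52.3% in CVST+Ligation, and 28.6%, 38.4% and 37.7% in 4-PBA. The groups of CVST and 4-PBA did not overlap, although CVST replicate 2 exceeded 4-PBA replicate 2 by only a small margin. The mean share was 16.1 points lower in 4-PBA than in CVST (34.9% ± 5.48 against 51% ± 10.7, SD, n = 3; two-sided exact permutation p = 0.1, the smallest that 3 against 3 libraries allow, and 0.9 after adjustment over 27 share comparisons). The shares of Pfkm, Pfkl and Pfkp in their family were 49.8%, 20% and 30.1% in CVST and 50.5%, 19.9% and 29.6% in 4-PBA, so the makeup of phosphofructokinase mRNA differed by less than its spread (exact permutation p of 0.7 to 0.9).

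**Figure D3:**
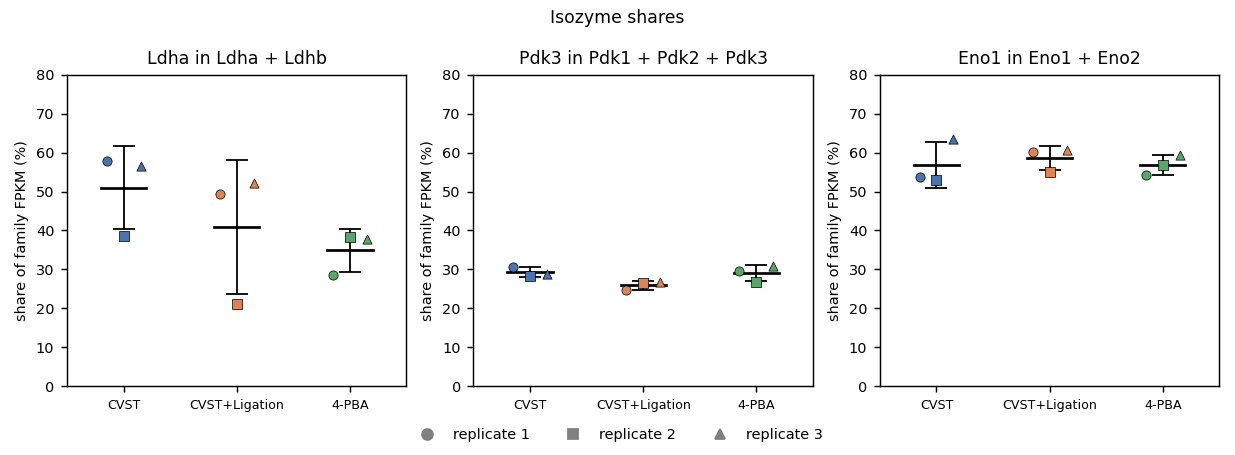
Share of 1 isozyme in the summed FPKM of its family (vertical axes, percent) for lactate dehydrogenase, pyruvate dehydrogenase kinase and enolase, by group, with 1 symbol per library, the mean as a bar and the SD as an error bar (n = 3). The Ldha share is 28.6% to 38.4% in 4-PBA and 38.7% to 57.7% in CVST, and the lowest share, 21.1%, is CVST+Ligation replicate 2.

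Pyruvate dehydrogenase kinases phosphorylate and switch off pyruvate dehydrogenase. Pdk2 was the most abundant per length, with 92 to 110.5 CPM in CVST, 106.6 to 135 in CVST+Ligation and 87.4 to 102 in 4-PBA. It was below every CVST+Ligation library in 4-PBA, without passing the threshold (log2 -0.29 ± 0.13, adjusted p = 0.9998, edgeR) unless CVST+Ligation replicate 3 was left out (-0.36) or gene length was corrected for (-0.292). Pdk1, a HIF target, measured 31.7, 32.1 and 18.7 CPM in CVST, 33.4, 18.2 and 23.9 in CVST+Ligation, and 21, 18.6 and 18.9 in 4-PBA (log2 -0.50 ± 0.26, adjusted p = 0.402 for 4-PBA against CVST). Without CVST replicate 3 this value was -0.731 and passed. Pdk3 ranged from 52.8 to 55.1, 47.4 to 55.8 and 44.6 to 50.4 CPM, with 4-PBA wholly below CVST. Its share of the 3 kinases' FPKM was 29.3% ± 1.27 in CVST, 25.9% ± 1.14 in CVST+Ligation and 29.1% ± 2.1 in 4-PBA. Every CVST+Ligation share lay below every share of the other groups, but its highest (26.67%) only just below the lowest of 4-PBA (26.85%). The group means differed by 3.34 points from CVST and 3.2 from 4-PBA (exact permutation p = 0.1 each, adjusted p = 0.9).

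Among the transporters, Slc16a1 (MCT1), a lactate carrier of endothelium and glia, had the tightest groups. It measured 73.1, 65.5 and 69.1 CPM in CVST, 81.3, 77.6 and 79.4 in CVST+Ligation, and 68.1, 71.1 and 67.8 in 4-PBA. All CVST+Ligation libraries were above all others, and neither difference was called in the edgeR model of all libraries with TMM (log2 0.20 ± 0.10, adjusted p = 0.574 against CVST, and -0.20 ± 0.10, adjusted p = 0.9998 for 4-PBA against CVST+Ligation). The first was called with total counts alone (0.239), DESeq2 (0.198) and both limma fits (0.235 and 0.239), and the second with DESeq2 (-0.196). Slc2a3 (GLUT3), the glucose transporter of neurons, measured 186, 119.6 and 148 CPM in CVST, 171, 105 and 169.5 in CVST+Ligation, and 122, 119.5 and 90.3 in 4-PBA. Replicate 2 was lowest in CVST and in CVST+Ligation, and leaving it out moved the 4-PBA difference past the threshold (from -0.453, adjusted p = 0.382, to -0.583 against CVST, and from -0.424, adjusted p = 0.9998, to -0.609 against CVST+Ligation). Neuron marker genes summed to 6991 to 7903 CPM in CVST, 6415 to 7169 in CVST+Ligation and 5386 to 7154 in 4-PBA. In 4-PBA against CVST, 3 of 11 were called lower and 1 higher, 6 lay above zero and the median log2 fold change was 0.0722. Their part in the lower Slc2a3, Eno2 and Hk1 values was not tested.

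Bnip3 encodes a mitochondrial protein of mitophagy and cell death that HIF induces, and it was the hypoxia target with a call (chromosome 7, 138890836 to 138909519, minus strand). It measured 120.4, 139.55 and 129 CPM in CVST, 95.9, 124 and 115 in CVST+Ligation, and 100.3, 108 and 96.4 in 4-PBA. All 4-PBA libraries were below all CVST libraries, at 21% less (log2 -0.35 ± 0.13, adjusted p = 0.238, edgeR). The call was lost without CVST replicate 2 (-0.277), 4-PBA replicate 1 (-0.325) or 4-PBA replicate 3 (-0.313), and also with total counts alone (-0.279) and limma on FPKM (-0.275 and -0.277). Its relative Bnip3l (NIX) ranged from 61.9 to 76.4, 73.5 to 75.3 and 66.9 to 85 CPM, with no separation. Vegfa, the main angiogenic factor under HIF, measured 31.3, 23.5 and 37.4 CPM in CVST, 30.6, 39.5 and 33.1 in CVST+Ligation, and 33.3, 36.6 and 30.4 in 4-PBA. P4ha1, a collagen prolyl hydroxylase and HIF target, ranged from 89.5 to 123, 79.4 to 113 and 96.2 to 102 CPM. Neither separated the groups. Over the 11 hypoxia response members the median log2 fold change of 4-PBA against CVST was 0.091, with 1 called higher, 1 lower and 7 of 11 above zero. These calls are 9.09% in each direction, near the shares of all genes tested (8.07% higher and 7.33% lower).

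A set of low members, picked after their values were seen, peaked in a single library. Hk2, the monocarboxylate transporter Slc16a3 (MCT4), Egln3 and Adm, which encodes the vasodilator adrenomedullin, are all known HIF targets. In 4-PBA replicate 3 they measured 11.4, 7.09, 9.98 and 9.03 CPM, which was 2.37, 3.34, 2.75 and 3.55 times the mean of the other 4-PBA libraries. Each was also above all 8 other libraries, which reached 9.99, 5.7, 8.37 and 4.61 CPM. Ankrd37 was highest there as well, at 5.53 CPM, by a small margin (1.11 times). None of the 5 was called in any comparison with all libraries. Bnip3, Vegfa, Pdk1 and P4ha1, which are HIF targets as well, were highest in other libraries. In 4-PBA replicate 3, Bnip3 (96.4 CPM) and Vegfa (30.4 CPM) had the lowest values of that group. Without this library, Slc16a3 and Egln3 were called lower in 4-PBA than in CVST (log2 -1.17 and -0.753, against -0.326 and -0.0844 with it), and without 4-PBA replicate 2 Adm was called higher than in CVST+Ligation (1.33, against 0.953). Without replicate 3 that Adm difference was 0.0571, and without CVST+Ligation replicate 1 it was 0.615. Summed neutrophil and monocyte genes were also highest in 4-PBA replicate 3, at 10.5 CPM against 1.36 to 6.25 in the others. There 3 of the 8 genes were at 0, and Ly6g, which marks neutrophils, was at 0 in all libraries of the group. Only 4 of the 8 passed the filter on low counts, and none was called in any comparison. Astrocyte genes summed to 3562 CPM in 4-PBA replicate 3 and to 2472 and 2368 in replicates 1 and 2. Their part in the peak was not tested. Adm was below every CVST library in every CVST+Ligation library (1.07 to 3.52 against 3.99 to 4.61 CPM).

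**Figure D4:**
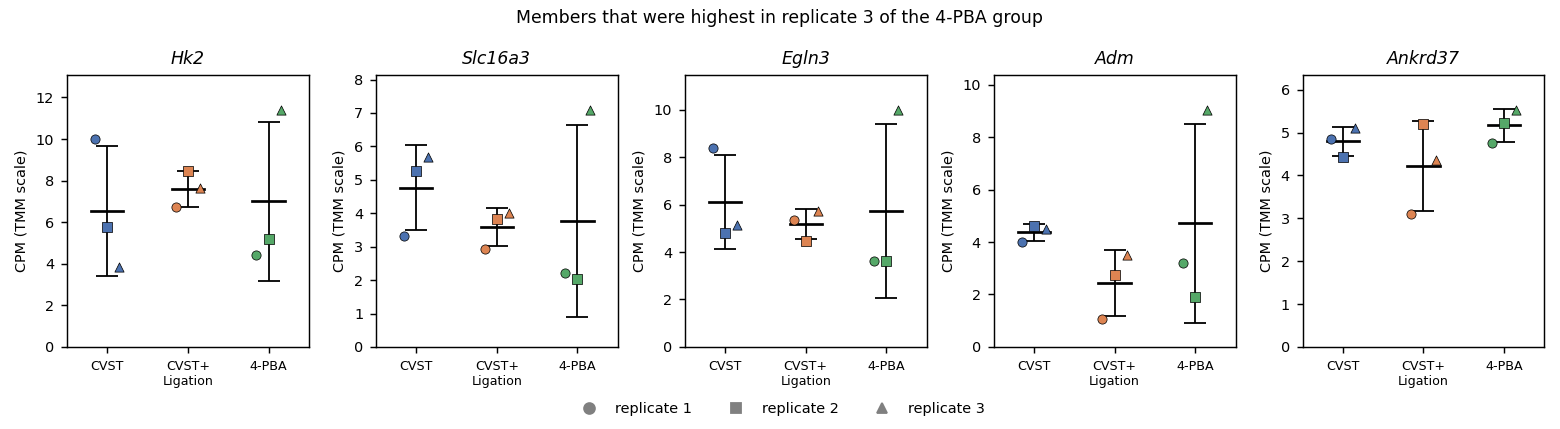
CPM on the TMM scale (vertical axes, from 0) of 5 members by group, with 1 symbol per library, the mean as a bar and the SD as an error bar (n = 3). Replicate 3 of 4-PBA (triangle) is the highest of the 9 libraries in each panel, at 11.4 CPM for Hk2 and 9.03 for Adm, and the other 4-PBA libraries are at or below the middle of the range for the first 4 genes.

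Across libraries, the members did not follow a single order. CVST replicate 3 was the highest library for 10 of 34 members and CVST replicate 1 for 7, while 4-PBA replicates 1 and 2 were highest for 1 and 0. Those highest in CVST replicate 3 were Gpi1, Pfkl, Aldoa, Tpi1, Gapdh, Pgk1, Pgam1, Eno1, Ldha and P4ha1, 9 of which are enzymes of glycolysis or lactate formation. Those highest in CVST replicate 1 were Hk1, Pfkm, Pfkp, Pfkfb3, Eno2, Pkm and Slc2a3. CVST+Ligation replicate 2 was highest for 6 members and lowest for 5, among them the low Pfkl (155 CPM) and Ldha values. The median SD of log2 CPM within groups was 0.157 for the 14 glycolytic enzymes, 0.23 for the hypoxia response members and 0.3 over all genes tested. These sets also differed in level, with medians of 561.9, 34.79 and 14.09 FPKM in the same order. The part of level in the spread was not tested.

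**Figure D5:**
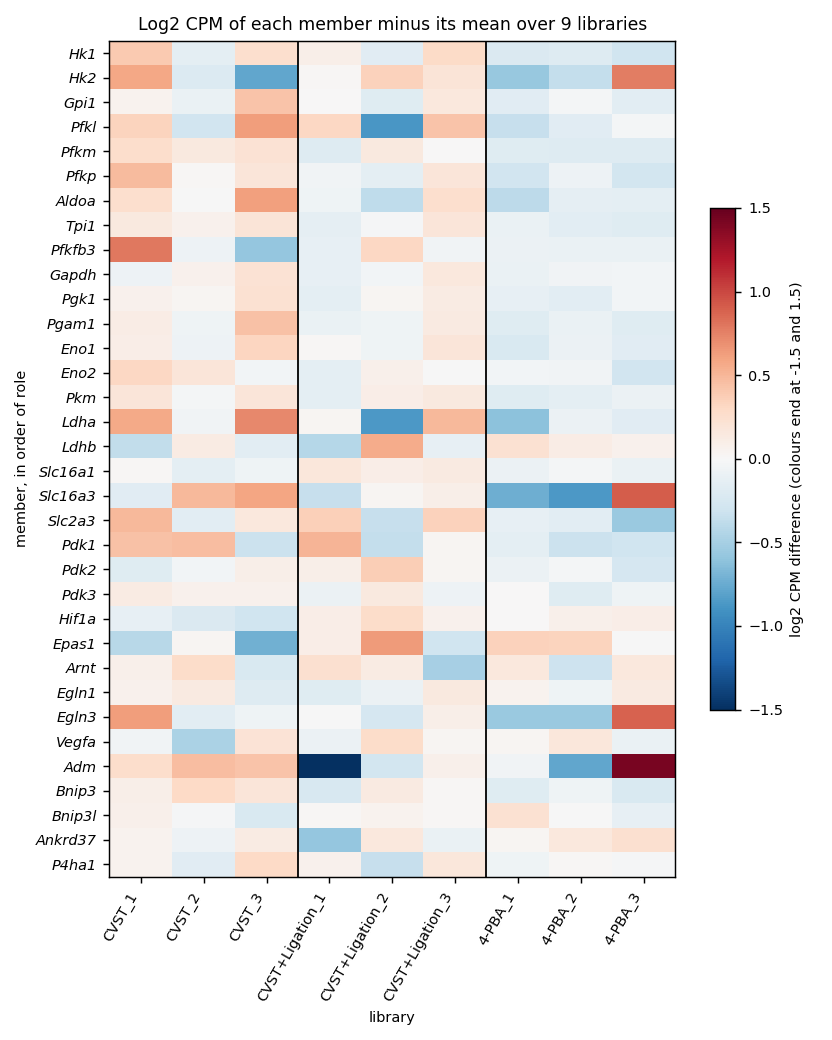
Log2 CPM of each of the 34 members (rows, in order of role) in each of the 9 libraries (columns, groups divided by lines), minus the member's mean over the libraries, from blue (below) to red (above). The glycolytic rows are mostly red in CVST replicates 1 and 3 and pale blue in 4-PBA, and Hk2, Slc16a3, Egln3 and Adm are red in 4-PBA replicate 3.

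Few other genes of these pathways were called. Of 32 further glycolysis genes 31 were tested, and of 45 further hypoxia genes 43. In 4-PBA against CVST, 2 of 31 glycolysis genes were called higher (6.45%) and 1 lower (3.23%), and 3 of 43 hypoxia genes higher (6.98%) and 4 lower (9.3%), where 8.07% and 7.33% of all genes were. Hkdc1, a further hexokinase, was lower in 4-PBA (1.52 to 5.87 CPM against 11 to 22.1, log2 -2.33 ± 0.60, adjusted p = 0.118). Pgm1, phosphoglucomutase, was higher (log2 0.44 ± 0.19, adjusted p = 0.297), a call that was lost when any 1 library other than CVST replicate 3 was left out (0.367 to 0.488).

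Of the further hypoxia genes, Ndrg1, a stress-induced gene also used by oligodendrocytes, was higher in 4-PBA than in CVST (79.2 to 159.9 against 67.7 to 72.7 CPM, log2 0.79 ± 0.26, adjusted p = 0.199), except without 4-PBA replicate 2 (0.538). P4ha2, a collagen prolyl hydroxylase, was higher as well (log2 0.64 ± 0.23, adjusted p = 0.228), except without CVST replicate 1 (0.456) or 2 (0.618). Angptl4, a secreted lipase inhibitor, was higher too (log2 1.44 ± 0.46, adjusted p = 0.184), except without 4-PBA replicate 2 (1.1). Kdm3a, a histone demethylase under HIF, was lower (52.8 to 55.1 against 67.5 to 91.6 CPM, log2 -0.56 ± 0.14, adjusted p = 0.119). Epor, the erythropoietin receptor, was lower (4.34 to 5.2 against 8.57 to 10.9 CPM, log2 -1.02 ± 0.23, adjusted p = 0.0854). Bhlhe40, a transcriptional repressor of the clock and of hypoxia, was lower (log2 -0.76 ± 0.23, adjusted p = 0.158), as was Ccng2, a cyclin-like gene (log2 -0.53 ± 0.14, adjusted p = 0.125). The last 4 calls held in all 16 alternatives.

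In CVST+Ligation against CVST, 3 of 31 further glycolysis genes were called higher (among them Aldoc and Pgm1) and 1 lower, and of 43 hypoxia genes 2 were higher (Ak4 and Zfp395) and 2 lower. These are shares of 9.68% and 3.23%, and of 4.65% each, where 5.47% of all genes were called higher and 4.18% lower. Aldoc, the aldolase of astrocytes and Purkinje cells, measured 949 to 1860 CPM against 486 to 957 (log2 0.72 ± 0.30, adjusted p = 0.494, edgeR). The call was lost without CVST replicate 1 (0.481) or 3 (0.776), or without CVST+Ligation replicate 2 (0.321), and in a model of only these groups (0.726). That library had the high cerebellum genes and the highest summed astrocyte genes (3766 CPM, a list that includes Aldoc), and their part was not tested. Pgm1 (log2 0.42 ± 0.19, adjusted p = 0.515) was likewise not called without that library (0.177), without CVST replicate 1 (0.331) or 2 (0.425), in a model of only these groups (0.423) or with gene length corrected for (0.391). Zfp395 (log2 1.04 ± 0.46, adjusted p = 0.515) was not called without it (0.217) or without CVST replicate 1 (1.23), 2 (1.05) or 3 (0.845), and lost its call in 10 of 16 alternatives. Ak4, a mitochondrial adenylate kinase, had log2 0.69 ± 0.30 (adjusted p = 0.506) and was not called without CVST replicate 1 (0.676) or 2 (0.54), or CVST+Ligation replicate 1 (0.512) or 3 (0.7). Pdp1, the phosphatase that reactivates pyruvate dehydrogenase and so opposes the Pdk members, was lower (70.5 to 105 against 107 to 211 CPM, log2 -0.77 ± 0.24, adjusted p = 0.362), and the call held in all 16 alternatives. Epor (log2 -0.83 ± 0.23, adjusted p = 0.308) and Kdm3a (log2 -0.41 ± 0.14, adjusted p = 0.416) were the lower hypoxia genes, Kdm3a not without CVST replicate 1 (-0.298) or CVST+Ligation replicate 2 (-0.334), or with limma on log2(FPKM + 1) (-0.345). In 4-PBA against CVST+Ligation, 1 of 31 further glycolysis genes (3.23%) and 1 of 43 hypoxia genes (2.33%) were called higher, and none was called lower. Of all genes, 1.81% were called higher and 1.42% lower. The hypoxia gene was Angptl4 (log2 1.23 ± 0.46, adjusted p = 0.9998, edgeR). The Angptl4 call was lost without CVST+Ligation replicate 1 (1.01) or 4-PBA replicate 2 (0.885) or 3 (1.18).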

How the data were processed

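Total RNA of 9 brain samples was extracted with TRIzol and sequenced as paired reads on a NovaSeq X Plus. According to the submitters' processing notes, the authors used fastp, HISAT2, StringTie and RSEM with the mouse build mm10 (GRCm38), without versions. The methods name RSEM for TPM. The program behind the deposited whole-number counts and the annotation are not given in the sources used here. The authors deposited whole-number counts for 20731 gene symbols, and values the methods call TPM. Those values are FPKM, since each deposited value is the count over the library total and 1 length per gene. Samples were grouped by their labels.

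Counts were scaled by TMM, filtered with filterByExpr and fitted with edgeR 4.0.16 (quasi-likelihood, R 4.3.3), all groups in 1 model without covariates, two-sided, with Benjamini-Hochberg adjustment over 14746 genes. CPM are on the TMM scale. Standard errors of log2 fold changes come from that model. Isozyme shares used FPKM and a two-sided exact permutation test. The fit was tested on simulated data, and the outcome of that test is not reported here. The alternatives were DESeq2 1.42.0 or its size factors, total counts alone, 2 other filters (at least 1 count in any library, or 10 in every library), a model of only the groups compared, a correction for gene length, the replicate number as a block, limma 3.58.1 on log2(FPKM + 1) or log2(FPKM + 0.1), and fits that omit a single library. The length correction used the lengths that the FPKM values imply for 17446 genes.

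The members, the further pathway lists, the marker lists and the tests were chosen with earlier results of these data known. Named with values were members called in any comparison, HIF subunits and prolyl hydroxylases, the isozyme families, Vegfa, Slc16a1, Slc2a3, and at most the 6 further pathway genes of smallest p per list and comparison. A further glycolysis gene that was called and a marker gene are counted but not reported here by name. Fold changes of members that were not called are given where p was below 0.1 or an alternative called them. The low members highest in a single library were picked after their values were seen. Promoter windows are from RefSeq (GRCm38.p6), gene positions from GENCODE M21. Plots were drawn with matplotlib 3.10.9.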

Additional observations from a re-analysis of the deposited data

How the results depend on the processing

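No member or further pathway gene called with all libraries reversed under any alternative run. Differences near zero did. Of those followed gene by gene, Ldhb in 4-PBA against CVST+Ligation reversed without CVST+Ligation replicate 1 (-0.104) or 3 (-0.0129). It rose to 0.414 without replicate 2. Egln3 in 4-PBA against CVST reversed without CVST replicate 1 (0.226) or 4-PBA replicate 1 (0.176) or 2 (0.162). It fell to -0.753 without 4-PBA replicate 3. Not every member was followed gene by gene. In CVST+Ligation against CVST, 26 of 34 members lay below zero with all libraries, and 22 without CVST replicate 1 or CVST+Ligation replicate 2. Members not named here thus changed sign too. The members' median stayed below zero in each comparison but changed in size. It was -0.233 in 4-PBA against CVST, and -0.13 and -0.143 with limma, -0.159 with total counts alone and -0.261 to -0.168 with 1 library left out. It was -0.103 in CVST+Ligation against CVST, and -0.0566 and -0.0571 with limma, -0.0613 with total counts alone and -0.162 (without CVST replicate 2) to -0.0823 with 1 library left out. The number of members called changed more. In CVST+Ligation against CVST it was 1, and 2 with total counts alone, DESeq2, the replicate block or limma on log2(FPKM + 1) or log2(FPKM + 0.1), and 1 to 4 with 1 library left out (4 without CVST+Ligation replicate 3). In 4-PBA against CVST+Ligation it was 0, and 1 with DESeq2 or the gene length correction, and 0 to 4 with 1 library left out (4 without CVST+Ligation replicate 2). In 4-PBA against CVST it was 8, and 10 with DESeq2 or the filter of at least 1 count, 9 with only the groups compared or the gene length correction, 7 with the stricter filter, 6 with total counts alone or limma on log2(FPKM + 1), 5 with limma on log2(FPKM + 0.1), and 2 to 9 with 1 library left out. The 2, without 4-PBA replicate 1, were Hif1a and Pfkm, and the 9 came without CVST replicate 2. Over all genes, the 476 calls of 4-PBA against CVST+Ligation became 256 to 1497 with 1 library left out (1497 without CVST+Ligation replicate 2, 256 without 4-PBA replicate 2). The further pathway genes called ranged from 4 to 11 in CVST+Ligation against CVST (8 with all libraries) and from 1 to 6 in 4-PBA against CVST+Ligation (2 with all libraries). Calls after adjustment over all genes numbered 855 with DESeq2 against 18 with edgeR in 4-PBA against CVST, with 1 member among them, and 264 against 3, and 22 against 0, in the other comparisons. Scaling moved the share of all calls that were higher. It was 52.4% in 4-PBA against CVST and 65.1% with total counts alone (65% and 65.9% with limma), 56.1% in 4-PBA against CVST+Ligation and 66.1% (72.4% and 71% with limma), and 56.7% in CVST+Ligation against CVST and 65.4%. Deviations of same-numbered libraries correlated between -0.0516 and 0.324 across genes. Differently numbered libraries were not compared, so whether the replicate numbers pair the samples was not tested. With the replicate block, 2, 0 and 10 members were called in CVST+Ligation against CVST, 4-PBA against CVST+Ligation and 4-PBA against CVST, with Epas1 added in the first (0.524) and Epas1 (0.603) and Ldha (-0.66) in the last. The cause of these changes was not tested. With 3 libraries a group, the common biological coefficient of variation over all genes was 0.287, which limits what these samples resolve.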
